A study of Mus musculus with 28 samples.

Results

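The expression of 6 fasting genes, Fgf21, Angptl4, Pdk4, Bdh1, Vnn1 and Creb3l3, was examined on arrays of liver RNA from 28 mice, all male C57BL/6J, that ate an intermittent diet. Each gene was taken from the probe sets that name it and no other gene, the brightest standing for the gene where there are several. Each of the 6 had exactly 1 such probe set, so 6 of 35556 probe sets, or 6 of 18820 genes, are described, with none left out. All mice were of the same strain, were housed singly from the start of their diets at 9 weeks of age, and are described with no transgene or deletion. The intermittent diet alternated a week of free access to a moderate-fat food, with 25% of its energy from fat, with a week at 60% of the energy eaten by mice on the control food. Lifelong groups ate it throughout and were sampled at ages of 6 months (6 mice), 12 months (7 mice) and 24 months (7 mice). A further group (n = 8) ate the moderate-fat food freely until 12 months, was then switched to the intermittent diet, and was sampled at 24 months. Before killing, food was withheld for 4 h, carboxymethyl cellulose was then delivered to the stomach, and food was withheld for 6 h more. Neither the clock time of killing nor the diet week, free or restricted, that a mouse was in at that time is given in the sources used here.

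When food is withdrawn, fatty acids from adipose tissue reach the liver and act as ligands of PPARA, a nuclear receptor that turns on genes of fatty acid transport, oxidation and ketone body synthesis. Fgf21 and Angptl4 encode proteins that the liver secretes under this control. FGF21 is a hormone that acts through FGF receptors and the coreceptor beta-klotho, and ANGPTL4 is an inhibitor of lipoprotein lipase. PDK4 is a kinase that switches off the pyruvate dehydrogenase complex and so spares glucose. BDH1 is the mitochondrial enzyme that converts acetoacetate and beta-hydroxybutyrate into each other. VNN1 is a pantetheinase, which splits pantetheine on the route of coenzyme A breakdown. CREB3L3 is a membrane-bound transcription factor of the endoplasmic reticulum that works together with PPARA and has Fgf21 among its targets.

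In the mouse GRCm38 annotation, Fgf21 lies at chr7:45613890-45615490, Angptl4 at chr17:33774900-33781575, Pdk4 at chr6:5483351-5496278, Bdh1 at chr16:31422297-31458901, Vnn1 at chr10:23894688-23905344 and Creb3l3 at chr10:81084329-81098872. The 250 bases before the start of transcription are shown for Fgf21, whose promoter is known to receive both fasting and stress inputs, and for Pdk4, the member that varied most between livers. They come from the RefSeq promoter table (GRCm38.p6), are read 5′ to 3′ on the minus strand on which both genes lie, and carry motif matches in capitals. The Fgf21 window is chr7:45615491-45615740 and the Pdk4 window is chr6:5496279-5496528.
Fgf21: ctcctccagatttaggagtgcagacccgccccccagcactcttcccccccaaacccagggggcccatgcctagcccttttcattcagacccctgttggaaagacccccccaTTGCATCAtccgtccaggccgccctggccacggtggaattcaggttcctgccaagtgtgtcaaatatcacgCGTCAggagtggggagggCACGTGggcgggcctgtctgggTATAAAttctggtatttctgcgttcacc
Pdk4: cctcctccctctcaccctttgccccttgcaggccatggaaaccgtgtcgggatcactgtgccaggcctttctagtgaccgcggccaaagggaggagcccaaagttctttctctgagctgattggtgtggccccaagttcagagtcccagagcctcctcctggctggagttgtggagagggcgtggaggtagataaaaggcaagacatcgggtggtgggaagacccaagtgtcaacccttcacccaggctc
Both strands were searched for 7 motifs. The core bound by nuclear receptors was spelled AGGTCA, and the element bound by PPARA with RXR was searched as a direct repeat of that core with 1 base between the copies, so that its matches are also matches of the core. The amino acid response core, at which ATF4 acts, was spelled TGATGCAA. The E-box, a site of the clock and other factors, was spelled CACGTG. The site of forkhead factors such as FOXO1 was spelled GTAAACA. The box that places the start of transcription was spelled TATAAA. The core of the cyclic AMP response element, which CREB family factors bind, was spelled TGACG. The Fgf21 window held TGATGCAA on the opposite strand 139 bases before the start, TGACG on the opposite strand at 68 bases, CACGTG at 50 bases and TATAAA at 28 bases. Of 32817 such windows of mouse genes, 0.792% held TGATGCAA, 17.7% held TGACG, 6.02% held CACGTG and 12.4% held TATAAA. The Pdk4 window and both Bdh1 windows held none of the 7 motifs. Of the 2 windows of Creb3l3, the one at chr10:81092592-81092841 on the minus strand held AGGTCA at 202 bases and TGACG at 239 bases before the start, and 14.0% of all windows held AGGTCA. The direct repeat was in 0.0335% and GTAAACA in 3.16% of all windows, and in none of these members' windows. The repeat was searched only in this exact spelling and within 250 bases, and so few windows hold it that its absence cannot show that these genes lack a PPARA element. Angptl4 and Vnn1 are named only.

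Array medians lay between 5.23 and 5.31 on the log2 scale, and the correlation between arrays, across probe sets, lay between 0.978 and 0.992. Hepatocyte markers averaged 12.7 to 12.9 in each of the groups, while the averages for markers of adipocytes, pancreatic acinar cells and skeletal muscle stayed between 3.37 and 4.98 in every liver. Markers of B and plasma cells averaged 4.97 at 6 months, 5.35 at 12 months, 6.36 at 24 months and 6.32 in the switched group, and 5 of their 6 measured genes rose between 6 and 24 months (limma). The part of these cells in the members' values was not tested, and in bulk liver fewer cells of a type and less RNA per cell cannot be told apart. The 3 array batches, read from the array names as G150, G151 and G152, each held livers of every group.

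No member passed a test between the groups compared, while livers inside a group differed widely in Pdk4 and, to a lesser degree, in Fgf21 and Vnn1. Switched mice were compared with lifelong mice at 24 months only, not with those at 6 or 12 months. None of the 6 genes passed the test in any of the 4 comparisons of groups. That is 0 of 24 tests in limma with Benjamini-Hochberg adjustment over all 35556 probe sets at 0.05, with 4 of 24 at an unadjusted p under 0.05 and adjusted p from 0.0657 to 0.995. By the same test 0.591% of all probe sets passed between 12 and 6 months, 4.73% between 24 and 6 months, 0.0253% between 24 and 12 months, and 0.0197% between the switched and the lifelong group at 24 months. Unadjusted p was under 0.05 for 13.1%, 19.2%, 11.1% and 7.58% of all probe sets in that order, and for 2, 1, 1 and 0 of the 6 members. The groups overlapped for every member in all 24 comparisons, while 0.903%, 1.69%, 0.276% and 0.0366% of all probe sets did not overlap, in the same order. The comparisons with 6 months share their 6 livers, and the lifelong livers at 24 months enter 3 of the 4 comparisons. A moderated F test over the 4 groups, which 8.07% of all probe sets passed, was passed by 1 member, Vnn1.

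**Figure D1:**
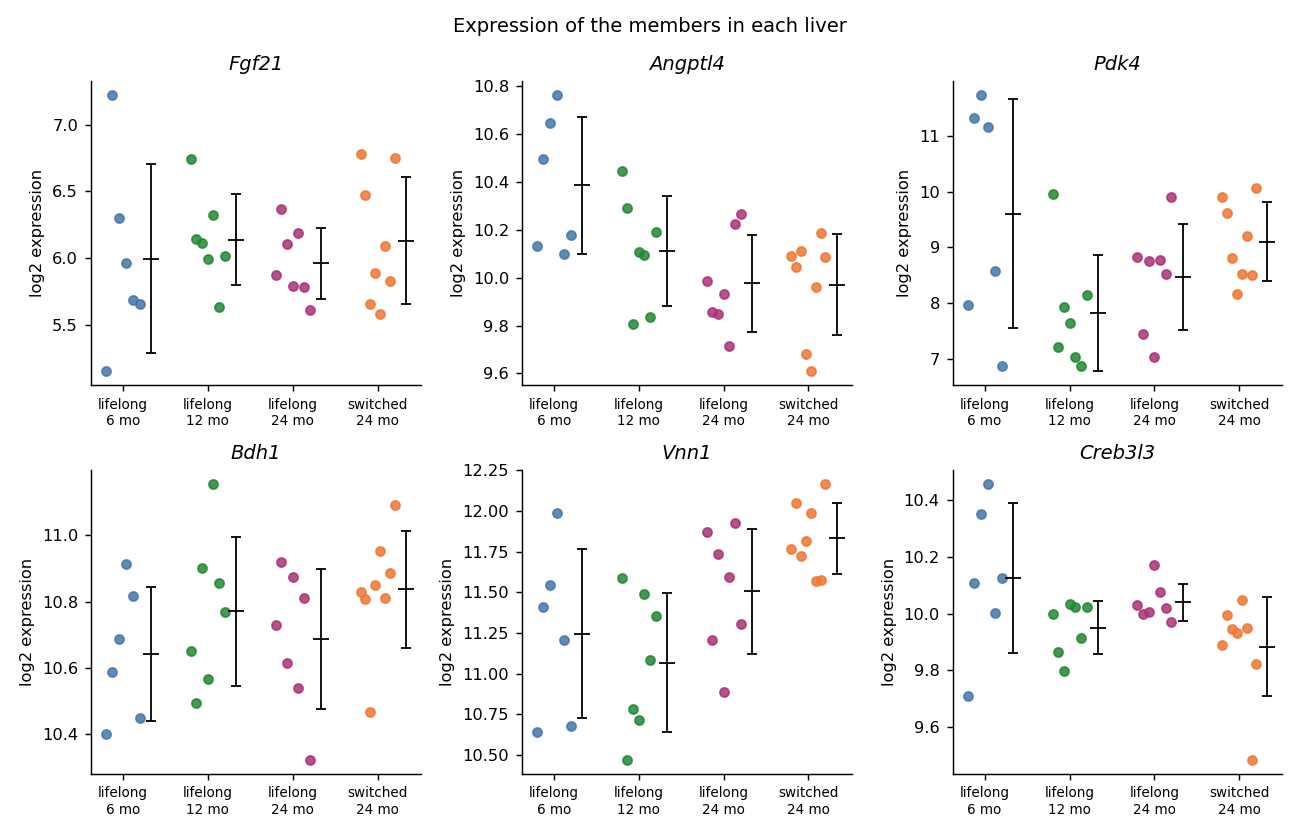
Log2 expression (vertical axis) of the 6 members in each of the 28 livers (points), by group (horizontal axis), with each group's mean. Pdk4 spans 6.87 to 11.73, Creb3l3 spans 9.49 to 10.46, and in each panel the groups overlap.

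Fgf21, the hormone, was at much the same level in every group. Fgf21 was the dimmest member, with a mean of 6.06 at percentile 52.7 of all genes, against percentiles 84.4 to 98.1 for the others. Its lowest, median and highest livers read 5.15, 5.82 and 7.22 at 6 months and 5.63, 6.11 and 6.74 at 12 months, all on the log2 scale. They read 5.61, 5.87 and 6.36 in lifelong mice at 24 months and 5.58, 5.99 and 6.78 in switched mice. Both the lowest and the highest of the 28 livers were 6-month livers, 4.21-fold apart. By mean, the order was 12 months (6.14 ± 0.34, SD, n = 7), switched (6.13 ± 0.48, n = 8), 6 months (6.00 ± 0.71, n = 6) and lifelong 24 months (5.96 ± 0.27, n = 7), and no neighbours in it differed beyond their spread. The difference between 12 and 6 months was 0.14 (95% interval -0.39 to 0.67), that between 24 and 6 months -0.05 (-0.58 to 0.48), that between 24 and 12 months -0.19 (-0.71 to 0.32), and that between switched and lifelong mice 0.19 (-0.31 to 0.69). None passed the test (limma adjusted p of 0.878, 0.947, 0.833 and 0.918).

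Angptl4, the lipase inhibitor, had its highest mean at 6 months. Its lowest, median and highest livers read 10.10, 10.34 and 10.76 at 6 months and 9.81, 10.11 and 10.45 at 12 months. They read 9.72, 9.93 and 10.27 in lifelong mice at 24 months and 9.61, 10.07 and 10.19 in switched mice. All 7 lifelong livers at 24 months lay below the 6-month mean, although the highest of them lay above the lowest 6-month liver. The difference between 24 and 6 months was -0.40 (SE 0.13, 95% interval -0.67 to -0.14, limma adjusted p = 0.0657), outside the threshold. It was -0.41 in batch G150 (4 livers against 4), -0.50 in G151 (1 against 1) and -0.26 in G152 (2 against 1). The difference between 12 and 6 months was -0.29 (SE 0.13, limma adjusted p = 0.321), with 6 of 7 livers below the 6-month mean, and that between 24 and 12 months was -0.11 (95% interval -0.37 to 0.14). Switched and lifelong mice at 24 months were -0.01 apart (95% interval -0.25 to 0.24). The difference between 24 and 6 months passed when the dimmest 30% of probe sets were left out (limma adjusted p = 0.0485), with array weights (0.0426), with only the probe sets that stand for a gene (0.0423), and without 6-month replicate 1, 6-month replicate 5 or 24-month replicate 7. In the other 18 of 24 alternatives this difference stayed outside the threshold (limma adjusted p up to 0.553).

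Pdk4, the kinase of the pyruvate dehydrogenase complex, had the widest spread of the 6. Its lowest, median and highest livers read 6.88, 9.87 and 11.73 at 6 months and 6.87, 7.64 and 9.95 at 12 months. They read 7.04, 8.75 and 9.90 in lifelong mice at 24 months and 8.16, 9.01 and 10.07 in switched mice. At 6 months the livers fell apart, with 3 at 11.16, 11.31 and 11.73 and 3 at 6.88, 7.97 and 8.58, and no liver of another group reached the upper 3. The range from lowest to highest was 28.7-fold at 6 months, 8.41-fold at 12 months, 7.23-fold in lifelong mice at 24 months and 3.74-fold in switched mice. By mean, the order was 6 months (9.61 ± 2.05, SD, n = 6), switched (9.10 ± 0.71, n = 8), lifelong 24 months (8.47 ± 0.95, n = 7) and 12 months (7.83 ± 1.04, n = 7). The difference between 12 and 6 months was -1.84 (SE 0.66, 95% interval -3.19 to -0.49, limma adjusted p = 0.198), with 6 of 7 livers below the 6-month mean. It was -1.59 in batch G150 (4 livers against 4), -4.20 in G151 (2 against 1) and 0.76 in G152 (1 against 1). In G151 and G152 the value rests on a single 6-month liver, so it cannot show whether the batches differ. The other differences were -1.06 for 24 against 6 months (limma adjusted p = 0.407), 0.78 for 24 against 12 months (0.688) and 0.55 for switched against lifelong mice (0.899, 7 of 8 livers above the lifelong mean). For the pair at 24 months the 95% interval ran from -0.72 to 1.81, and so held both directions.

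Bdh1, the ketone body dehydrogenase, was even across groups. Its lowest, median and highest livers read 10.40, 10.64 and 10.91 at 6 months and 10.50, 10.77 and 11.16 at 12 months. They read 10.32, 10.73 and 10.92 in lifelong mice at 24 months and 10.47, 10.84 and 11.09 in switched mice. The means lay between 10.64 and 10.84, with SDs of 0.18 to 0.23, and no group stood apart. The largest of the differences tested was 0.16 for switched against lifelong mice (SE 0.11, 95% interval -0.06 to 0.38, limma adjusted p = 0.782), with 7 of 8 livers above the lifelong mean. Differences of 0.12, 0.04 and -0.08 for 12 against 6, 24 against 6 and 24 against 12 months had limma adjusted p of 0.727, 0.893 and 0.853.

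Vnn1, the pantetheinase, was the member that passed the F test over the 4 groups (F = 6.15, limma adjusted p = 0.0409). Its lowest, median and highest livers read 10.64, 11.31 and 11.99 at 6 months and 10.47, 11.08 and 11.59 at 12 months. They read 10.89, 11.60 and 11.93 in lifelong mice at 24 months and 11.57, 11.79 and 12.17 in switched mice. The mean was lowest at 12 months (11.07 ± 0.43, SD, n = 7), then came 6 months (11.25 ± 0.52, n = 6), lifelong 24 months (11.51 ± 0.38, n = 7) and the switched group (11.83 ± 0.22, n = 8), in which all 8 livers stood above the lifelong mean at 24 months. The difference between 24 and 12 months was 0.48 (SE 0.20, 95% interval 0.06 to 0.90, limma adjusted p = 0.373), and that between switched and lifelong mice was 0.32 (SE 0.20, 95% interval -0.09 to 0.72, adjusted p = 0.757). Neighbours in this order did not differ by the test. The 12-month and switched groups, whose means lay farthest apart, were not tested against each other. The F test was not passed in batch G150 alone (limma adjusted p = 0.253), in G151 and G152 alone (0.692), with the replicate number as a block (0.169), or in 12 of 28 fits that each left out 1 liver (0.0508 to 0.0839). Those livers were 6-month replicates 2, 5 and 6, 12-month replicates 2, 3, 4 and 6, lifelong 24-month replicate 5, and switched replicates 2, 4, 5 and 8.

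Creb3l3, the transcription factor, was the most even of the 6 outside the 6-month group. Its lowest, median and highest livers read 9.71, 10.12 and 10.46 at 6 months and 9.80, 10.00 and 10.03 at 12 months. They read 9.97, 10.02 and 10.17 in lifelong mice at 24 months and 9.49, 9.94 and 10.05 in switched mice. The SD was 0.26 at 6 months, 0.09 at 12 months, 0.07 in lifelong mice at 24 months and 0.17 in switched mice, the last with 1 liver, replicate 7, far below the rest. All 7 livers at 12 months lay below the 6-month mean, with a difference of -0.18 (95% interval -0.38 to 0.01, limma adjusted p = 0.409), and 7 of 8 switched livers lay below the lifelong mean (-0.15, adjusted p = 0.737). The differences for 24 against 6 and 24 against 12 months, -0.09 and 0.10, had limma adjusted p of 0.682 and 0.732.

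**Figure D2:**
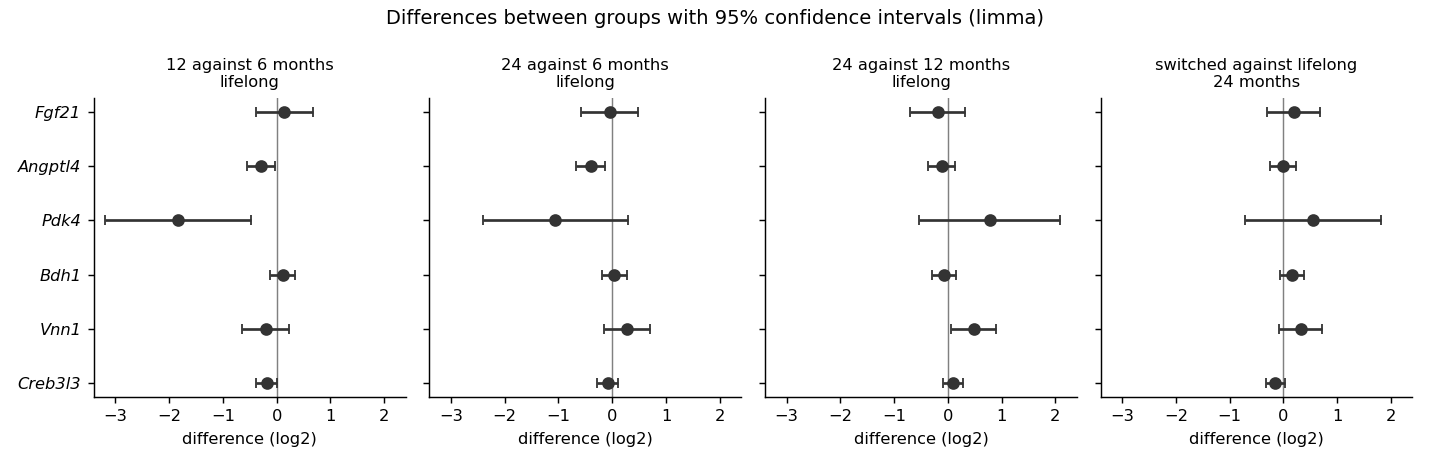
Differences between groups in log2 units (horizontal axis) with 95% confidence intervals from limma, for the 6 members (vertical axis) in the 4 comparisons (panels). The interval for Pdk4 is by far the widest, running from -3.19 to -0.49 for 12 against 6 months, and none of the 24 differences passed after adjustment.

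Pdk4 was among the most variable genes of the liver inside groups. Its SD with group means removed was 1.23 log2 units, and 6 of 18820 genes had a larger one, namely Hsd3b5, Cxcl13, Gm15441, Cyp2b9, Saa2 and Cdkn1a, named after their values were seen, against a median of 0.162 over all genes. Fgf21 had an SD of 0.468 (362 genes larger) and Vnn1 of 0.391 (613 genes larger). Angptl4, at 0.232, and Bdh1, at 0.203, lay closer to the rest (3022 and 4723 genes larger), and Creb3l3, at 0.163, was at the median. Part of this spread came from the 6-month livers. Without them, the SD of Pdk4 was 0.901 (31 genes larger), that of Fgf21 0.379 (731 larger), that of Vnn1 0.349 (934 larger) and that of Creb3l3 0.123 (14806 larger), while Angptl4 (0.215) and Bdh1 (0.204) kept nearly the same values.

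The labels give the same fast for every mouse but not the diet week that a mouse was in when killed. The livers were therefore not divided, and the question was asked as whether the members rise and fall together from liver to liver inside a group. Of the 15 pairs of members, 3 did so over the 28 livers with group means removed, and all 3 held Pdk4. Pdk4 went with Angptl4 (r = 0.659, rho = 0.627, adjusted permutation p = 0.0142), with Vnn1 (r = 0.649, rho = 0.626, adjusted permutation p = 0.0142) and with Fgf21 (r = 0.614, rho = 0.596, adjusted permutation p = 0.0147), each two-sided with 100000 permutations of livers inside groups and Benjamini-Hochberg adjustment over the 15 pairs. By rho the adjusted permutation p was 0.0148 for each of the 3. An r at least that far from 0, as in the weakest of these pairs, was reached by 2.16% of all other genes with Pdk4, 1.19% with Angptl4, 1.16% with Vnn1, 0.792% with Bdh1, 0.553% with Fgf21 and 0.494% with Creb3l3. Without the 2 livers farthest from the median of the first gene, r was 0.631 for Angptl4 and Pdk4, 0.594 for Pdk4 and Vnn1 and 0.521 for Fgf21 and Pdk4. In batch G150 alone the values were 0.543, 0.760 and 0.809 in that order, the first with an adjusted permutation p of 0.166. Since Pdk4 fell into separate clusters at 6 months, the values without that group are the ones to set beside these. They were 0.522, 0.479 and 0.488 over 22 livers, with adjusted permutation p of 0.162, 0.222 and 0.162, so none of the 3 pairs passed there. None of the 15 pairs passed either without 12-month replicate 1, the highest liver of that group for Pdk4, Fgf21, Angptl4 and Vnn1, and 5 passed without lifelong 24-month replicate 4.

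Inside single groups r took different values, and the differences between groups were not tested. All 15 pairs had an r above 0 at 6 months, 12 at 12 months, 5 in lifelong mice at 24 months and 10 in switched mice. Fgf21 and Pdk4 had r = 0.730 at 6 months, 0.751 at 12 months, -0.392 in lifelong mice at 24 months and 0.910 in switched mice (exact permutation p = 0.00375 for the last). Pdk4 and Bdh1, with r = -0.0164 over all livers, had r = -0.888 in lifelong mice at 24 months (exact permutation p = 0.00556) and 0.565 at 6 months. Of the 60 exact permutation tests inside groups, 8 had an unadjusted p under 0.05 and 0 passed after adjustment over the 60. Vnn1 and Creb3l3 (r = 0.485, rho = 0.336, adjusted permutation p = 0.0682) and Bdh1 and Vnn1 (r = 0.426, rho = 0.348, adjusted permutation p = 0.118) came next over the 28 livers, and did not pass. Without the 2 livers farthest from the median of Vnn1, Vnn1 and Creb3l3 did pass (r = 0.487, adjusted permutation p = 0.0423).

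**Figure D3:**
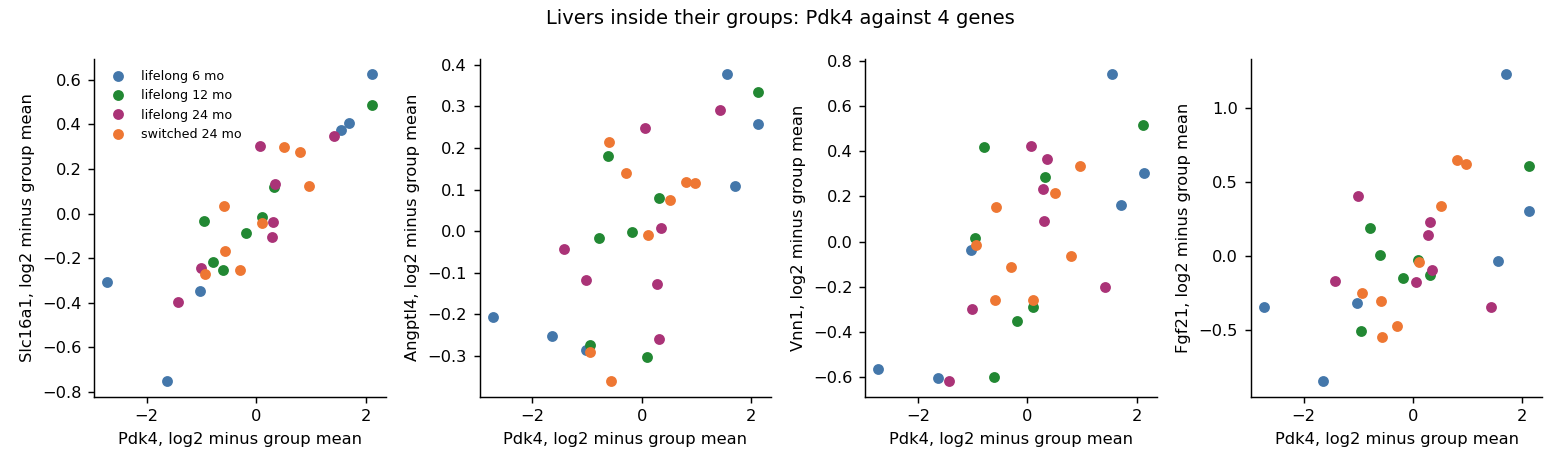
Log2 expression minus the group mean in each liver, Pdk4 on the horizontal axis against Slc16a1, Angptl4, Vnn1 and Fgf21 on the vertical axes, coloured by group. The 6-month livers lie at both ends of the Pdk4 axis, and the points for Slc16a1 lie closest to a line (r = 0.884).

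The members were then set against further genes of feeding and fasting: 11 lipogenic genes of the fed liver, 9 genes of glucose output and low insulin, and 7 ketone body genes. PPARA turns on genes of ketone body synthesis, so the lists are not separate from its control. Of the 162 pairs, 6 passed, 5 with a positive and 1 with a negative r, and none of them held a lipogenic gene. The closest was Pdk4 with Slc16a1, which encodes the carrier of lactate, pyruvate and ketone bodies (r = 0.884, rho = 0.903, adjusted permutation p = 0.00162). It kept an r of 0.927 in batch G150, 0.909 without the 2 farthest livers and 0.861 without the 6-month group (adjusted permutation p = 0.00162). Slc16a1 also went with Angptl4 (r = 0.688, rho = 0.661, adjusted permutation p = 0.0146) and Vnn1 (r = 0.658, rho = 0.654, adjusted permutation p = 0.0354), though not without the 6-month group (0.563 and 0.532, adjusted permutation p of 0.183 and 0.243), and with 0.628 and 0.771 in G150 (adjusted permutation p of 0.317 and 0.0211). Igfbp1, a gene that insulin represses, went with Angptl4 (r = 0.624, rho = 0.654, adjusted permutation p = 0.00405; 0.713 without the 6-month group, with 0.0105, and 0.645 in G150, with 0.134) and with Pdk4 (r = 0.514, rho = 0.516, adjusted permutation p = 0.00486). The call for Pdk4 was lost without the 6-month group (r = 0.649, adjusted permutation p = 0.0518) and in G150 (r = 0.337, adjusted permutation p = 0.420). It was also lost with array batch taken off (r = 0.496, adjusted permutation p = 0.0599), where each other pair of the 6 kept its call. Pck1, the gluconeogenic enzyme, went against Bdh1 (r = -0.656, rho = -0.570, adjusted permutation p = 0.0146), a call that was lost without the 6-month group (r = -0.627, adjusted permutation p = 0.124) and in G150 (r = -0.464, adjusted permutation p = 0.452). Of the 6 pairs, 2 thus passed without the 6-month group and 2 in G150, and Pdk4 with Slc16a1 was the pair in both. By rho, Pdk4 with Igfbp1 and Bdh1 with Pck1 did not pass (adjusted permutation p of 0.0667 and 0.0988), and the other 4 did (0.00162 to 0.0373). Without the 2 farthest livers r was 0.671 for Angptl4 and 0.590 for Vnn1 with Slc16a1, 0.595 for Angptl4 and 0.513 for Pdk4 with Igfbp1, and -0.701 for Bdh1 with Pck1, and the call for Vnn1 was lost (adjusted permutation p = 0.145). Over the 66 pairs with a lipogenic gene, r was below 0 in 41 and above 0 in 25, from -0.571 for Vnn1 with Pklr to 0.501 for Fgf21 with Me1 (adjusted permutation p of 0.108 and 0.166).

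The members were also set against 25 other PPARA target genes, 12 clock genes and 7 genes that glucocorticoids induce, a step added after the values had been seen. Of these 264 pairs, 91 passed with all livers by r, 79 of them by rho as well, and 20 passed without the 6-month group. Each pair of this set that is named for all livers passed by rho too. Among the 25 PPARA targets, Vnn1 went with 22, Pdk4 with 20, Angptl4 with 17, Fgf21 with 16, Creb3l3 with 6 and Bdh1 with none, always with a positive r. The median r over the 25 was 0.674, 0.691, 0.580, 0.540, 0.433 and 0.300 in that order, against medians between -0.00132 and 0.0155 over all genes. Without the 6-month group the counts were 4, 8, 3, 0, 0 and 0 and the medians 0.532, 0.520, 0.405, 0.383, 0.0629 and 0.198. The share of all genes that would pass with each member by this test was not computed, for these lists or the earlier ones. An r at least 0.614 from 0 was reached by 0.494% to 2.16% of all other genes, but some listed pairs passed with a weaker r. The counts therefore cannot be set against the whole array.

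The pair with the highest r for each member, chosen after the values were seen, gives the detail. Pdk4 ran closest to Slc22a5, the carnitine importer (r = 0.878, rho = 0.875, adjusted permutation p = 0.00132), with r = 0.80 without the 6-month group, 0.868 without the 2 farthest livers and 0.856 in G150. Vnn1 ran closest to Plin2, the lipid droplet coat protein (r = 0.787, rho = 0.766, adjusted permutation p = 0.00132), with 0.692, 0.771 and 0.837 under the same restrictions. Angptl4 ran closest to Acot1, an acyl-CoA thioesterase (r = 0.776, rho = 0.746, adjusted permutation p = 0.00154), with 0.708, 0.756 and 0.767. Fgf21 was closest to Plin2 (r = 0.676, rho = 0.602, adjusted permutation p = 0.00757) and Creb3l3 to Decr1, a reductase of fatty acid oxidation (r = 0.632, rho = 0.591, adjusted permutation p = 0.0140), and neither passed without the 6-month group (0.568 and 0.455). In batch G150 these were 0.786 and 0.680, and without the 2 farthest livers 0.562 and 0.652.

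Bdh1 passed with no PPARA target, and with 5 clock genes and 2 glucocorticoid-induced genes. Without the 6-month group 1 of these clock genes, Per3, and 0 of the glucocorticoid-induced genes passed. With all livers Bdh1 went against Arntl, which drives the clock (r = -0.669, rho = -0.601, adjusted permutation p = 0.00390; -0.709 without the 2 farthest livers, -0.604 without the 6-month group, where adjusted permutation p was 0.0602, and -0.559 in G150), and with Per3, a period gene of the clock (r = 0.625, rho = 0.629, adjusted permutation p = 0.00792; 0.701, 0.636 and 0.346 likewise). It also went against Cry1 (r = -0.599, rho = -0.571) and Nfil3 (r = -0.487, rho = -0.526) and with Bhlhe40 (r = 0.560, rho = 0.620), all genes of the clock, and without the 6-month group these 3 had adjusted permutation p of 0.0699, 0.143 and 0.0699. It went against Fkbp5 (r = -0.583, rho = -0.574) and Zbtb16 (r = -0.605, rho = -0.674), which glucocorticoids induce, with adjusted permutation p of 0.0699 and 0.110 without the 6-month group. Angptl4 went with Clock (r = 0.623, rho = 0.606, adjusted permutation p = 0.00519; 0.606 without the 2 farthest livers, 0.640 without the 6-month group, 0.619 in G150) and Fkbp5 (r = 0.568, rho = 0.596). Pdk4 went against Tef, an output factor of the clock (r = -0.449, rho = -0.475, adjusted permutation p = 0.0182), with r further from 0 without the 6-month group (r = -0.810, adjusted permutation p = 0.00528), where Per3 passed as well (r = -0.756, adjusted permutation p = 0.0132; r = -0.456 and 0.0543 with all livers). The difference between members in these relations was not tested, nor was the part of the clock time at which mice were killed.

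**Figure D4:**
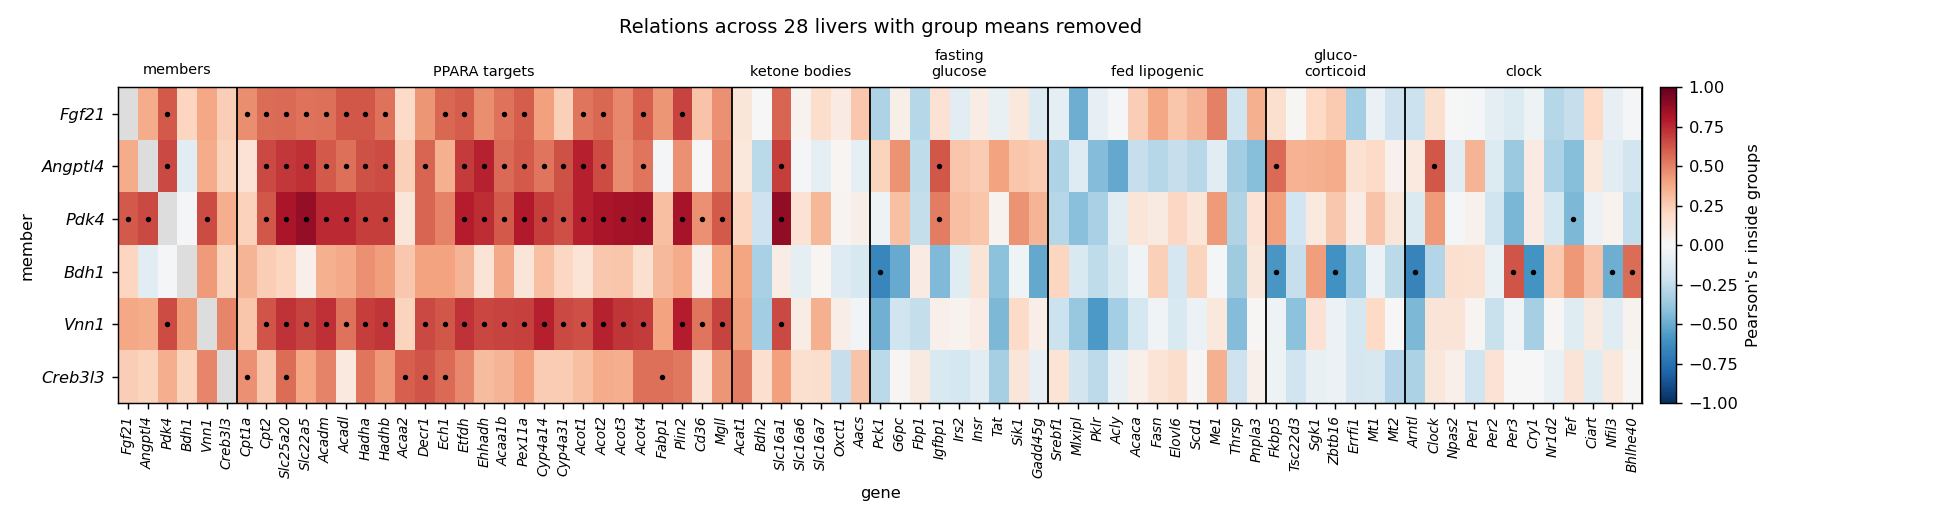
Pearson's r over 28 livers with group means removed, for each member (rows) with the other members and with the genes of 6 lists (columns); red is positive, blue negative, and a dot marks a pair that passed after adjustment. Pdk4, Vnn1, Angptl4 and Fgf21 are red across most of the 25 PPARA targets, and Bdh1 has its dots among the clock and glucocorticoid genes and at Pck1.

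The 6-month group shows the pattern liver by liver. Pdk4 read 7.97, 11.31, 11.73, 11.16, 8.58 and 6.88 in replicates 1 to 6. Ehhadh, the bifunctional enzyme of peroxisomal oxidation, read 11.36, 12.94, 13.03, 13.08, 11.95 and 11.93 in the same livers, and Acot1 read 7.71, 10.09, 10.26, 10.02, 8.57 and 8.18. Replicates 2, 3 and 4 were thus the highest in all 3 genes, and they were the highest in Angptl4 too, at 10.50, 10.65 and 10.76 against 10.10 to 10.18 in the others. Fgf21 was highest in replicates 2 (7.22), 3 (6.30) and 4 (5.96) and lowest in replicate 1 (5.15), and Vnn1 was highest in replicates 4 (11.99), 3 (11.55) and 2 (11.41). Of the 25 PPARA targets, 22 had these 3 livers as their highest 3 and 0 as their lowest 3, against 8.2% and 7.17% of all 18820 genes, a description of livers singled out by their Pdk4 with no test. The other fasting lists were mixed. Of 7 ketone body genes 2 had these livers highest, Acat1 and Slc16a1, and Slc16a1 read 8.95, 10.11, 10.33, 10.07, 9.36 and 9.40 in replicates 1 to 6. Of 9 genes of glucose output and low insulin none had them highest and 1, Fbp1, had them lowest. Igfbp1 read 10.00, 9.98, 10.24, 10.06, 10.09 and 9.51, and Pck1 read 12.89, 12.73, 12.79, 12.64, 12.71 and 12.81 in replicates 1 to 6. Cpt1a, the entry enzyme of mitochondrial fatty acid oxidation and itself a PPARA target, stayed between 12.11 and 12.31. Of the 11 lipogenic genes none had replicates 2, 3 and 4 highest, and 3 had them lowest. These were Thrsp (11.18, 8.94, 9.47, 9.13, 10.61 and 11.25), Acly (9.10, 8.93, 8.91, 8.74, 9.52 and 9.09) and Pklr (11.23, 11.17, 11.12, 10.80, 11.45 and 11.69), while the other 8, Fasn and Srebf1 among them, had them neither highest nor lowest. Replicates 2 and 3 were in batch G150 and replicate 4 in G151, and of the other 3 livers replicates 1 and 5 were in G150 and replicate 6 in G152. The labels give the same fast for every mouse. They do not give the diet week or clock time of each mouse at killing, against which these values could be set.

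**Figure D5:**
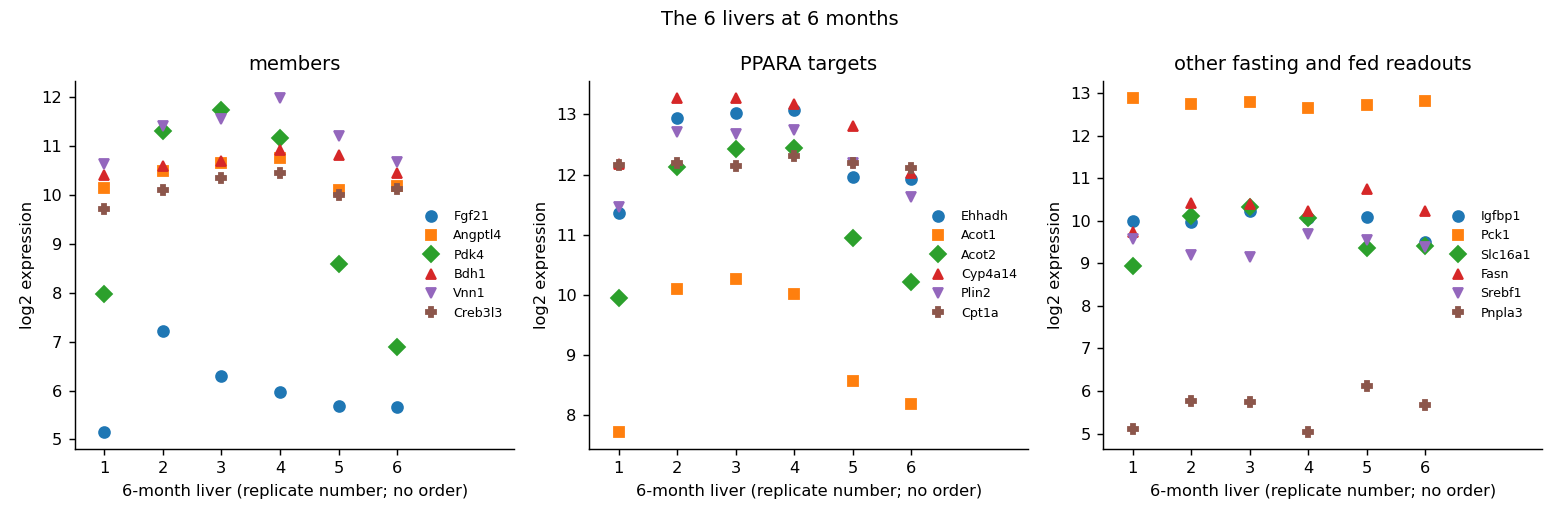
Log2 expression (vertical axis) in each of the 6 livers at 6 months (horizontal axis, replicate number without order) for the members, for 6 PPARA targets and for 6 other fasting and fed genes. Replicates 2, 3 and 4 are highest in Pdk4, Angptl4, Ehhadh, Acot1 and Slc16a1, while Igfbp1 and Pck1 do not separate these livers.

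No other group held a gap in Pdk4 as wide in log2 units, though the gap below the highest 12-month liver took up 0.586 of that group's range. At 12 months, replicate 1 stood alone at 9.95 against 6.87 to 8.15 in the other 6 livers, and it had that group's highest Fgf21 (6.74), Angptl4 (10.45) and Vnn1 (11.59). In lifelong mice at 24 months Pdk4 was highest in replicate 7 (9.90), a liver whose Fgf21 was the lowest of its group (5.61), whose Bdh1 was the lowest (10.32), and whose Igfbp1 was the highest of all (10.93). In switched mice Pdk4 was highest in replicates 8 (10.07), 1 (9.91) and 2 (9.61), the livers that were also the 3 highest for Fgf21, at 6.75, 6.78 and 6.47. High Pdk4 thus came with high Fgf21 in the 6-month, 12-month and switched groups and not in the lifelong 24-month group, a contrast that was not tested.

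The pathway genes around the members that passed between groups did so in the comparisons with 6 months. Of all probe sets, 0.591% passed between 12 and 6 months and 4.73% between 24 and 6 months. Whether the lists below passed more often than that was not tested. Of the 25 PPARA targets, 3 fell between 6 and 12 months: Ehhadh (-1.16, SE 0.27, limma adjusted p = 0.0458), Cyp4a31, a fatty acid omega-hydroxylase (-0.92), and Hadhb, the thiolase of mitochondrial long-chain oxidation (-0.46). The median over the 25 was -0.33, with 1 above 0, beside 0.007 over all genes. Between 6 and 24 months Hadhb fell by 0.36 and Cd36, the fatty acid importer, rose by 1.11, with a median of -0.18. Between 12 and 24 months none of the 25 passed, 23 differences were above 0, and the median was 0.12. Of the 7 ketone body genes, Slc16a1 fell by 0.61 between 6 and 24 months (SE 0.18, limma adjusted p = 0.0470), and its -0.74 between 6 and 12 months did not pass (0.0523).

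The FGF receptor and related genes, and the amino acid and stress response genes, are read beside the same shares of all probe sets. None of the 8 FGF receptor, coreceptor and related genes passed in any of the 4 comparisons, with Fgfr4, at 0.56 for 12 against 6 months, the nearest (limma adjusted p = 0.0518). The F test over the 4 groups was passed by Fgfr4 (limma adjusted p = 0.0392) and Fgfr1 (0.0444). Of 10 amino acid and stress response genes, Sesn2 fell by 0.41 and Nupr1 rose by 0.40 between 6 and 24 months. None of the 16 regulators of fasting and none of the 12 clock genes passed in any of the 4 comparisons. By the F test, which 8.07% of all probe sets passed, further genes of the lists did pass. Among them were Pparg (limma adjusted p = 0.00817), Slc16a7 (0.00593) and Pdhb (0.00856). Around Angptl4, 2 of 10 lipase and apolipoprotein genes rose from 6 to 12 months and again from 6 to 24 months, namely Apoa4 (0.77 and 0.80) and Apoc2, the cofactor of lipoprotein lipase (0.36 and 0.29). Around Pdk4, 1 of 11 pyruvate dehydrogenase genes, Pdhx, fell by 0.25 between 6 and 24 months. Around Vnn1, 1 of 11 pantetheine and coenzyme A genes, Coasy, the last enzyme of coenzyme A synthesis, rose by 0.33 between 6 and 24 months.

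Among the genes of the fed state, Pnpla3, a lipid droplet protein, rose by 1.01 and Scd1, the stearoyl-CoA desaturase, by 0.20 between 6 and 24 months, 2 of 11. The median of the 11 was 0.40 for 12 against 6 months, where none passed, and 0.28 for 24 against 6 months, each with 10 of 11 above 0. Of 9 genes of glucose output and low insulin, Tat, a tyrosine-degrading enzyme, fell by 0.42 between 6 and 24 months. Igfbp1 was highest at 6 months, at 9.98 ± 0.25 (SD, n = 6) against 9.04 ± 0.47 at 12 months (n = 7) and 8.93 ± 0.95 at 24 months (n = 7), with differences of -0.99 and -1.03 that did not pass (limma adjusted p of 0.152 and 0.0646). Of 7 glucocorticoid-induced genes, Mt2, a metallothionein, rose by 2.09 and Tsc22d3 fell by 0.71 between 6 and 24 months. In the comparison of 24 with 12 months and in that of switched with lifelong mice, 0 genes of these lists passed.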

How the data were processed

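Liver RNA of 28 mice was hybridised to 1 single-colour array each, with an RNA integrity number above 8.0 required per the labels' protocols. The deposited values are log2 expression values that the authors made with RMA, per the submitters' processing notes, and were used as deposited. Whether the authors normalised every array together is unstated. Of 35556 probe sets, 21218 carry a single gene in the platform annotation, 1881 carry several and 12457 carry none. No probe set was filtered out.

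All arrays entered 1 fit in limma 3.58.1 (R 4.3.3) with group and array batch as terms, two-sided, and Benjamini-Hochberg adjustment over all probe sets at 0.05. Relations between genes were tested over livers with group means removed, by 100000 permutations inside groups (numpy 2.4.6, Python 3.11.15). Both procedures were tested on simulated data. The members and gene lists were chosen with earlier results of these data known. Named were the members, list genes that passed or otherwise those with the smallest p, and the 3 genes most like each member. The paired pathway examples were chosen after their values were seen. The number of arrays limits the precision. Listed genes without a probe set of their own were not analysed here.

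Replicate numbers did not pair the livers: of 39 same-numbered pairs of arrays in different groups, 1 had a correlation over 0.1.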

Additional observations from a re-analysis of the deposited data

Results flagged for a closer look

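In 3 of the 24 sets of livers, each of 1 member in 1 group, a liver lay farther from its neighbour than Dixon's test allows at its 95% level, and chance gives about 1 in 20. Pdk4 at 12 months was highest in replicate 1, at 9.95, with a gap that made up 0.586 of the group's range (critical value 0.568). Bdh1 in switched mice was lowest in replicate 3, at 10.47, with a gap of 0.543 of the range (critical value 0.526). Creb3l3 in switched mice was lowest in replicate 7, at 9.49, with a gap of 0.601 of the range (critical value 0.526). The causes were not tested.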

How the results depend on the processing

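Of 921 values of single members and of the 3 related pairs under the alternatives, 869 kept their side of the threshold and any direction they have. A further 22 no longer passed, 7 newly passed and 23 changed sign, and for none of these was the cause tested. Only Vnn1 in the F test and the 3 pairs had passed at first, so only these could lose a call. Vnn1 lost it in 15 of 38 alternatives. Of 33 alternatives, Pdk4 lost its call with Fgf21 in 2, with Angptl4 in 3 and with Vnn1 in 2. The sign changes in batch G150 alone were Creb3l3 (0.025) for 24 against 6 months, Pdk4 (-0.033) and Bdh1 (0.0056) for 24 against 12 months, and Fgf21 (-0.049) and Angptl4 (0.0016) for switched against lifelong mice. In G151 and G152 alone they were Fgf21 (0.13) and Bdh1 (-0.019) for 24 against 6 months and Angptl4 for 24 against 12 months (0.085) and for switched mice (0.021). Fitting only the groups compared gave Angptl4 0.0070 for switched mice. Without 1 liver at a time, ranges that crossed 0 were -0.021 to 0.39 for Fgf21 in 12 against 6 months, -0.21 to 0.20 for Fgf21 and -0.024 to 0.14 for Bdh1 in 24 against 6 months, -0.13 to 0.039 for Bdh1 in 24 against 12 months and -0.055 to 0.042 for Angptl4 in switched mice. The 1 member past the F test became 0 in G150 alone, 0 in G151 and G152 alone and 2 with array weights, and 0 to 1 without 1 liver. The 0 members past the test between 24 and 6 months became 1 without the dimmest 30%, 1 with array weights and 1 with only probe sets that stand for a gene, the last added after the data were seen, and 0 to 1 without 1 liver. The 3 related member pairs became 0 without the 6-month group, also an added alternative, 4 without the 2 farthest livers, and 0 to 5 without 1 liver. The 6 pairs with fed and fasting genes became 2 in G150 alone and 2 without the 6-month group, and 4 to 8 without 1 liver. Over all alternatives except single livers, the probe sets called ranged from 0 to 518 around 210 (12 against 6 months), 3 to 2264 around 1681 (24 against 6), 0 to 33 around 9 (24 against 12) and 0 to 11 around 7 (switched). Without 1 liver they ranged from 7 to 546, 831 to 2370, 1 to 124 and 1 to 36 in that order. With the replicate number as a block, which the numbers do not warrant (2 of 28 arrays correlated best with their own number), 0 members passed the F test, Fgf21 read 0.025 for 24 against 6 months, and the probe sets called were 122, 1334, 0 and 2. No second probe set exists for any member, so that alternative was not run.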

Other observations

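The genes whose values ran most like each member over the 28 livers, with group and batch removed, are given as a description, with the value without the 6-month group after each. For Pdk4 they were Rab30 (r = 0.942, then 0.894), Grpel2 (0.916, then 0.835) and Ddhd2 (0.897, then 0.850). For Fgf21 they were Paqr3 (0.793, then 0.784), Grpel2 (0.782, then 0.683) and Sp3 (0.775, then 0.647), so that Grpel2, a mitochondrial import factor, was near both. For Angptl4 they were Eya3 (0.854, then 0.825), Baiap2l1 (0.836, then 0.795) and Chkb (0.820, then 0.847). For Vnn1 they were Tgm2 (0.857, then 0.786), Chdh (0.804, then 0.711) and Pla2g12a (0.802, then 0.838). For Bdh1 they were St6gal1 (0.820, then 0.795), Ttyh2 (0.805, then 0.784) and Asb13 (0.797, then 0.801). For Creb3l3 they were Pdzd8 (0.810, then 0.791), Ube2e2 (0.794, then 0.731) and Prr5 (0.783, then 0.843). These are the highest values among 18820 genes, and the livers share arrays, batches and handling.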
